A study of Rattus norvegicus and Mus musculus with 12 samples.

Results

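The chemokines described here are the CC ligands Ccl2, Ccl3, Ccl4, Ccl5, Ccl7, Ccl9, Ccl11 and Ccl20 and the CX3C ligand Cx3cl1. These 9 genes were taken by their gene names from the 2 gene tables of the series, which list 19687 genes for rat and 28603 for mouse. The mouse table held a row for each of the 9, and the rat table for 8, with no row named Ccl11. The series compared primary chondrocytes from the articular cartilage of newborn SD rats and newborn C57BL/6 mice, at passage 1, with the same cells given IL-1β at 20 ng/ml for 24 h, as a culture model of the inflamed joint. The control groups are called RC (rat) and MC (mouse), and the model groups RM (rat) and MM (mouse). Each group had 3 libraries of bulk RNA, 12 in all. The strain labels of the mouse libraries read C57BL/6, C57BL/7 and C57BL/8 in MC and C57BL/7, C57BL/8 and C57BL/9 in MM, while the study's methods name only C57BL/6. The methods call the 3 samples of a group independent but do not say whether they came from separate animals, so the P values measure the spread between these samples, which may be technical.

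Chemokines are small secreted proteins that direct the movement of leukocytes by binding G protein-coupled receptors. CC chemokines carry their first pair of conserved cysteines side by side, whereas in CX3CL1, also called fractalkine, 3 other residues lie between them, and CX3CL1 is made as a membrane protein that proteases can release. In the inflamed joint these ligands are known for drawing monocytes, T cells and other leukocytes, and many of them are induced by IL-1 through NF-κB.

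The cysteine motif that defines both classes can be read in the coding sequences of the mouse transcripts of GENCODE M21. It is shown for the 6 members with enough reads in mouse to be tested, 5′ to 3′, with the codons of the first 2 cysteines of the motif in capitals.
Ccl2: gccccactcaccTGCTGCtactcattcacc
Ccl7: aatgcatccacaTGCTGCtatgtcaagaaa
Ccl5: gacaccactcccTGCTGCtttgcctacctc
Ccl9: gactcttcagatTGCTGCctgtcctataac
Ccl20: agcaactacgacTGTTGCctctcgtacata
Cx3cl1: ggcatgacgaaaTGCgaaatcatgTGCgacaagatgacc
In the 5 CC ligands the cysteine codons were adjacent, and in Cx3cl1 they were separated by 3 codons.

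The libraries held between 16841580 and 25903459 counts, and the 9 chemokines together took a small share of them that was far larger in the model groups. Their summed level ranged from 9.085 to 10.4 CPM in RC and from 352.6 to 452.6 in RM. In mouse it ranged from 39.19 to 40.76 CPM in MC and from 1850 to 1868 in MM. CPM are counts scaled to the total of the library. Levels below are FPKM, which are counts scaled by transcript length and by the total of the library and can be compared between genes, and fold changes come from the edgeR quasi-likelihood fit of the counts with TMM scaling, model against control, with P adjusted (Benjamini-Hochberg) across every gene tested in that species. The FPKM carry no TMM scaling, so in mouse a ratio of FPKM is lower than the fitted fold. The 2 tables were normalised separately, so rat and mouse levels are only given side by side. In these bulk samples, fewer cells of a type and less RNA per cell cannot be told apart.

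Of the 8 chemokines with a row in rat, 4 had enough counts to be tested, and all 4, Ccl2, Ccl7, Ccl20 and Cx3cl1, were higher in RM at an adjusted P under 0.05. Among all 13303 rat genes tested, 18.3% were higher by this rule. Of the 9 in mouse, 6 were tested, of which Ccl2, Ccl5, Ccl7, Ccl20 and Cx3cl1 were higher in MM against 37.4% of the 14774 genes tested, and Ccl9 was lower, against 37.7%. The study's methods ask of a differentially expressed gene a fold change above 0.85, a P under 0.05 and an FPKM of 1 or more, and do not say whether the fold change is on a log scale. Read here as a log2 fold change of 0.85 or more in size, with an unadjusted P under 0.05 and 1 FPKM or more in a library, all 4 rat chemokines passed, where 8.54% of genes tested did in either direction, and all 6 mouse chemokines did, against 25.6%. Ccl20 in rat and Ccl20 and Ccl5 in mouse reached the count minimum of the filter through the model libraries, and Ccl9 in mouse through the control libraries, so for these the filter itself favoured a difference. The median log2 fold change was 5.64 for the 4 rat chemokines and 7.29 for the 6 in mouse, beside 0.01 and -0.02 for all genes tested. These medians are the same with Ccl20 set at its fold against the floor or its count ratio, and they cover only the chemokines that passed the filter.

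**Figure D1:**
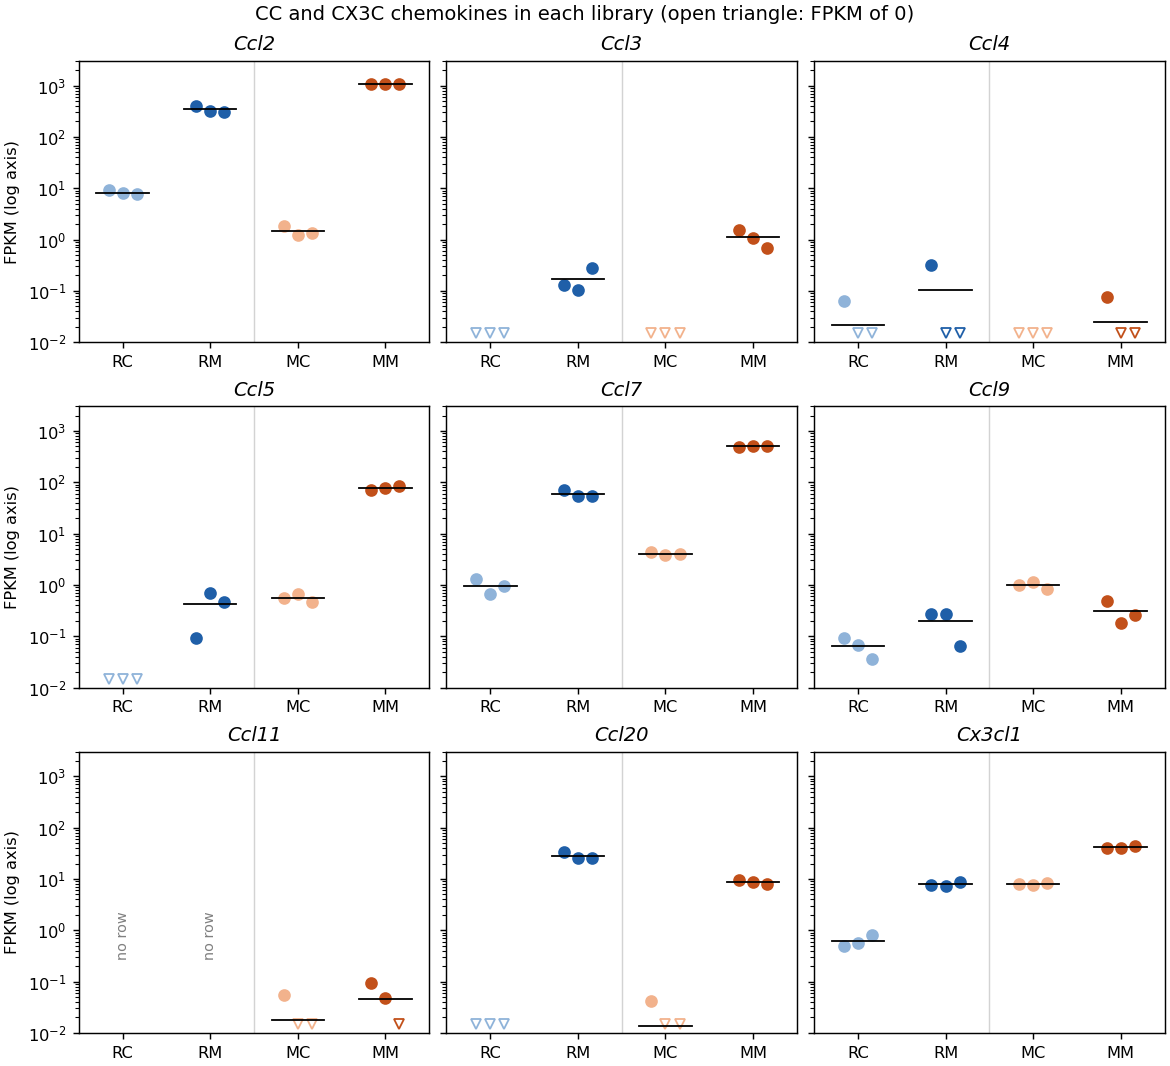
FPKM of each chemokine in each library on a log axis, with a panel for each gene. Points are libraries, open triangles libraries at 0 and bars group means, with 3 libraries in each of RC, RM, MC and MM, and Ccl2 in mouse went from 1.20 to 1.85 FPKM in MC to 1055 to 1065 FPKM in MM.

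Ccl2 and Ccl7, also called MCP-1 and MCP-3, are ligands of CCR2, the receptor through which classical monocytes are recruited. Ccl2 was read at 9.09, 7.99 and 7.66 FPKM in RC and at 409, 314 and 310 FPKM in RM. It was low in every RC library and high in every RM library, with no overlap between the groups. The mean rose from 8.25 ± 0.750 to 344 ± 55.8 FPKM (SD, n = 3), a log2 fold change of 5.36 (SE 0.14, edgeR adjusted P = 1.74e-09), or 41.1-fold. In mouse Ccl2 was read at 1.85, 1.20 and 1.37 FPKM in MC and at 1065, 1055 and 1057 FPKM in MM. The MM libraries were nearly alike, and the log2 fold change was 9.76 (SE 0.057, edgeR adjusted P = 4.98e-79), or 869-fold. Ordered by log2 fold change from the largest rise down, Ccl2 ranked 16 of 14774 mouse genes and 25 of 13303 rat genes.

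Ccl7 was read at 1.28, 0.659 and 0.947 FPKM in RC and at 71.7, 53.8 and 54.0 FPKM in RM. The RM libraries were all far above the RC libraries, and the log2 fold change was 5.92 (SE 0.20, edgeR adjusted P = 1.34e-08), or 60.7-fold. In mouse Ccl7 was read at 4.45, 3.85 and 3.96 FPKM in MC and at 493, 515 and 500.2 FPKM in MM. The groups were again far apart, with a log2 fold change of 7.22 (SE 0.059, edgeR adjusted P = 6.27e-71), or 149-fold.

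The ratio of these neighbouring ligands is given as a description, with no test. In rat the Ccl2 level was above that of Ccl7 in every library, with FPKM ratios of 7.13, 12.1 and 8.08 in RC and 5.70, 5.85 and 5.73 in RM. In mouse the ratio lay below 1 in MC, at 0.415, 0.311 and 0.346, and above 1 in MM, at 2.16, 2.05 and 2.11. Ccl2 supplied from 65.5% to 73.5% of the counts of the 9 chemokines in RC and from 73.3% to 75.4% in RM. In mouse its share was between 3.48% and 5.16% in MC, where Cx3cl1 supplied from 77.0% to 81.1%, and between 64.4% and 65.5% in MM.

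Ccl5, also called RANTES, and Ccl3 and Ccl4, also called MIP-1α and MIP-1β, attract T cells and macrophages. Ccl5 was upregulated in mouse, where it was read at 0.548, 0.680 and 0.464 FPKM in MC and at 69.2, 78.7 and 83.6 FPKM in MM. Every MM library lay far above every MC library, and the log2 fold change was 7.36 (SE 0.12, edgeR adjusted P = 4.42e-53), or 164-fold. In rat Ccl5 was near the detection limit, with 0 counts in each RC library and 1, 10 and 6 counts in RM. This is 5.54-fold higher against a floor of 3 counts over the RC group, a ratio that leaves out counting error in RM. It was too low to be tested after filtering, and in a fit of all genes without a filter it had an adjusted P of 0.0151 (edgeR).

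Ccl3 had 0 counts in all 6 control libraries of both species. In MM it had 24, 16 and 9 counts, 18.0-fold higher against the floor of 3 counts over MC, with a mean of 1.10 ± 0.446 FPKM (SD, n = 3). The filter removed it because 2 of the 3 MM libraries reached the minimum of 0.564 CPM, and without the filter the adjusted P was 1.82e-11 (edgeR). In RM it had 2, 2 and 5 counts, 2.93-fold higher against the floor of 3 counts over RC, with an adjusted P of 0.0605 without the filter (edgeR). Neither ratio covers the counting error of the model counts. Ccl4 had 1 count over RC and 4 counts in a single RM library, and in mouse it had 0 counts over MC and 1 over MM, so no difference was detectable at this depth. Ccl3 and Ccl4 were thus at or near the floor in rat, and in mouse Ccl3 had reads in every MM library while Ccl4 had 1 read in all.

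Ccl20, also called MIP-3α, is the ligand of CCR6, a receptor of Th17 cells and immature dendritic cells. It had 0 counts in each RC library and 522, 525 and 487 counts in the RM libraries, or 32.9, 25.8 and 25.8 FPKM. This was 500.1-fold higher against the floor of 3 counts over RC (edgeR adjusted P = 1.56e-07). In mouse 1 read was found over the MC libraries, and the MM libraries were at 9.44, 8.78 and 8.13 FPKM, 715 counts in all. Every model library of both species held Ccl20 and 5 of 6 control libraries did not. The ratio of MM to MC counts, with library totals scaled by their TMM factors, was 789 (edgeR adjusted P = 9.77e-34). Its exact 95% interval ran from 141 to 31202 and covers counting error only.

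Ccl9, known from rodents as a ligand of CCR1, was the only one of the 6 chemokines tested in mouse that was lower in MM. It was read at 0.998, 1.15 and 0.823 FPKM in MC and at 0.491, 0.185 and 0.263 FPKM in MM. All MM libraries lay below all MC libraries, and the log2 fold change was -1.36 (SE 0.28, edgeR adjusted P = 1.61e-05) on 156 counts in MC and 55 in MM. Of the stretches of 50 bases in its transcripts, 59 of 2996 also occurred in transcripts of other genes, so a part of these reads may be shared, whereas none did in the other 8 chemokines. In rat Ccl9 had 3, 2 and 1 counts in RC and 7, 9 and 2 in RM, which overlap, and the adjusted P without the filter was 0.224 (edgeR). Ccl11, also called eotaxin-1, the CCR3 ligand that attracts eosinophils, had 1 count over MC and 3 over MM, which is at the floor in both groups.

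Cx3cl1 binds CX3CR1, a receptor of monocytes, natural killer cells and some T cells. It was read at 0.501, 0.565 and 0.803 FPKM in RC and at 7.66, 7.43 and 8.73 FPKM in RM. The groups did not overlap, and the log2 fold change was 3.66 (SE 0.16, edgeR adjusted P = 1.21e-07), or 12.7-fold. In mouse it was read at 7.98, 7.78 and 8.42 FPKM in MC and at 40.8, 40.6 and 43.6 FPKM in MM. It was thus the highest of the 9 in MC, and its log2 fold change of 2.65 (SE 0.046, edgeR adjusted P = 3.39e-52), or 6.27-fold, was the smallest of the 5 chemokines that were higher in MM.

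Ordered by FPKM, RM ran Ccl2, Ccl7, Ccl20 and Cx3cl1, each pair of neighbours without overlap between libraries, followed by Ccl5, Ccl9, Ccl3 and Ccl4, whose libraries overlapped. In MM the order was Ccl2, Ccl7, Ccl5, Cx3cl1, Ccl20, Ccl3 and Ccl9. In RC Ccl2 was highest, and the next in order, Ccl7 and Cx3cl1, overlapped. In MC the order was Cx3cl1, Ccl7, Ccl2, Ccl9 and Ccl5. The place of Ccl20 relative to Cx3cl1 was opposite in the model groups, with FPKM ratios of Ccl20 to Cx3cl1 of 4.29, 3.47 and 2.96 in RM and of 0.231, 0.216 and 0.186 in MM.

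**Figure D2:**
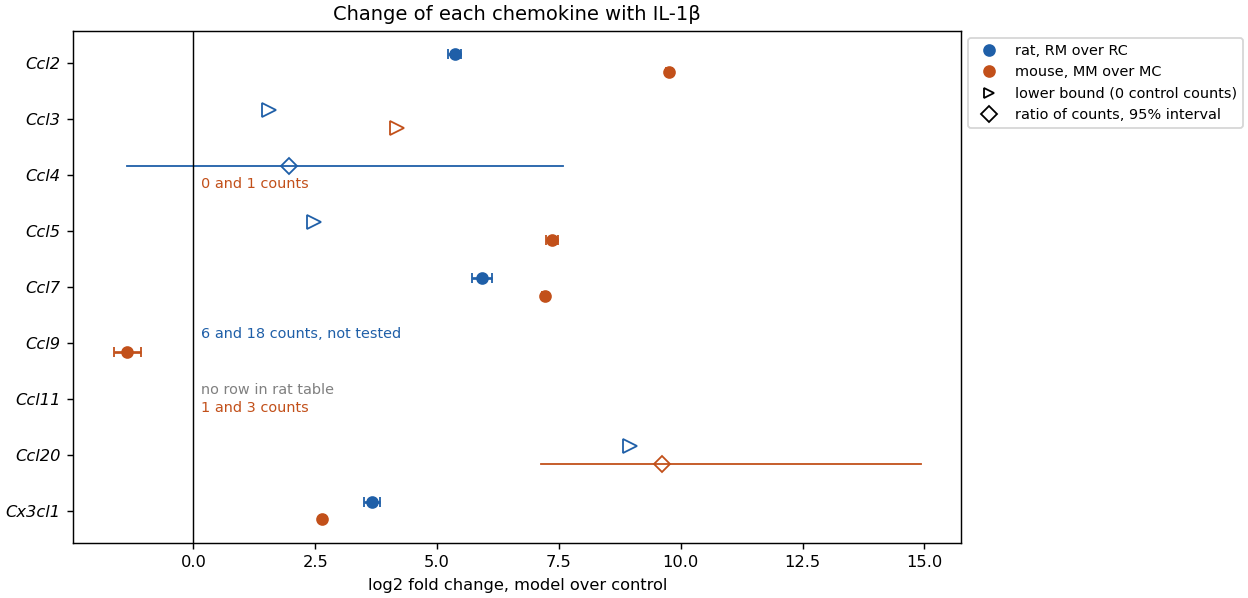
Change of each chemokine, model against control, on a log2 axis, in rat and in mouse. Points are edgeR log2 fold changes with their standard errors where the gene was tested with more than 3 control counts, other symbols are count ratios or lower bounds where a control group held 3 counts or fewer, and the mouse value of Ccl2, 9.76, lies far above its rat value, 5.36.

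Whether the response of a chemokine differed between the species was tested in a single fit of the genes shared by symbol, as the log2 fold change in mouse minus that in rat. Of the 9 chemokines 7 entered this fit, and 4 passed at an adjusted P under 0.05, where 58.8% of the 12397 genes tested did. Ccl2 rose more in mouse, by 4.40 on the log2 scale (95% interval 4.01 to 4.80, edgeR adjusted P = 3.35e-12). Ccl7 rose more in mouse by 1.30 (0.715 to 1.88, edgeR adjusted P = 0.00113). Cx3cl1 rose less in mouse, with a difference of -1.02 (-1.33 to -0.714, edgeR adjusted P = 2.13e-05), from a control level that was 8.06 ± 0.325 FPKM in MC beside 0.623 ± 0.159 FPKM in RC (SD, n = 3). Ccl9 differed by -2.86 (-4.48 to -1.23, edgeR adjusted P = 0.00665), with a rat side that rests on 6 and 18 counts. No rat library reached the count minimum for Ccl9, so it entered this fit through the mouse libraries alone. Ccl20, with 0 and 1 control counts, gave -2.64 (edgeR adjusted P = 0.234), and Ccl5, with 0 counts in RC, gave 2.01 (edgeR adjusted P = 0.743), so neither difference passed, and both rest on control counts near 0. Ccl3, with 0 counts in both control groups, gave 2.82 (edgeR adjusted P = 1.00). No usable standard error was had for these 3, and their estimates depend on the prior count. The fit used 1 estimate of the spread for both species, though the coefficient of variation between libraries was 0.106 in rat and 0.0318 in mouse. For Cx3cl1 the standard error of the difference, 0.156, was below that of rat alone, 0.165. The 95% intervals use the normal distribution, so they are narrower than the test itself would give.

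**Figure D3:**
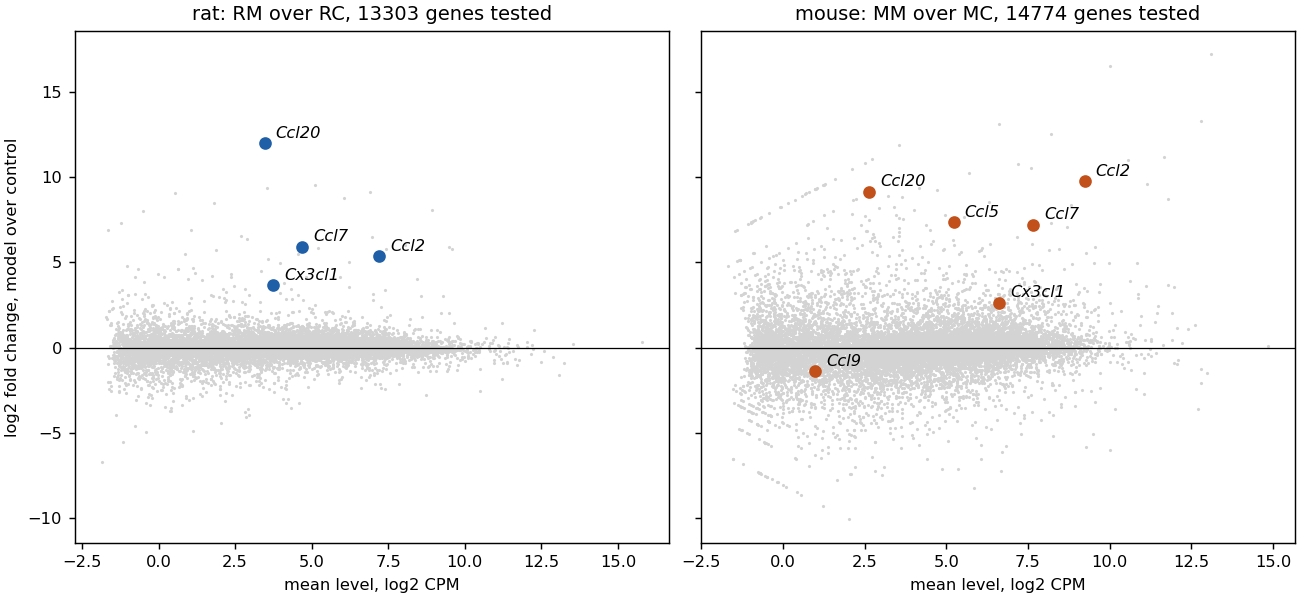
Log2 fold change against mean log2 CPM of every gene tested, rat on the left and mouse on the right, with the tested chemokines named. Grey points are the other genes, and the chemokines lie above 0 in both species except Ccl9 in mouse, while the fitted value of Ccl20 depends on the prior count because its control counts are 0 and 1.

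The genes whose pair of changes lay nearest to that of a chemokine were looked up among 10912 genes tested in both species, by the distance between the pairs of log2 fold changes in rat and mouse. Ccl2 lay nearest to Csf3, which encodes the granulocyte colony-stimulating factor G-CSF and changed by 4.66 in rat and 9.37 in mouse (log2), at a distance of 0.802, then to the organic anion transporter Slco4a1 and to Cxcl1, a neutrophil-attracting CXC chemokine with 6.02 in rat at a distance of 1.40. Csf3 and Slco4a1 had only 3 and 2 counts over MC, and 11 and 8 over RC. Ccl7 lay nearest to the matrix metalloproteinase Mmp10, with 5.85 and 7.77 at a distance of 0.555, then to Hcar2 and Egln3. Mmp10 had only 6 counts over MC, and Hcar2 had 3 over RC and 3 over MC. Cx3cl1 lay nearest to Ptprz1, with 3.28 and 2.49 at a distance of 0.412, then to Lbp, which binds lipopolysaccharide, and to the kinase gene Map3k8. These distances describe 2 contrasts only.

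Of the 9 genes 7 lie in 2 runs on mouse chromosome 11 (GRCm38, GENCODE M21), with 1462.8 kb between the end of Ccl11 in the first run and the start of Ccl5 in the second. The first run holds Ccl2 at 82035571 to 82037453, Ccl7 at 82045712 to 82047525 and Ccl11 at 82057823 to 82062955, all on the plus strand, and ends with Ccl8. Along it the counts over MM were 68810 for Ccl2, 22991 for Ccl7, 3 for Ccl11 and 23 for Ccl8, beside 87, 170, 1 and 0 over MC. High and low genes thus lay side by side in this run of 81.2 kb. The annotated gene Gm17268 overlaps Ccl2 on the opposite strand but had 0 and 1 counts.

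The second run of 138.9 kb holds Ccl5 at 83525778 to 83530518, Ccl9 at 83572919 to 83578636, Ccl6, Ccl3 at 83647844 to 83649355 and Ccl4 at 83662584 to 83664683. Ccl5 went from 28 to 4211 counts, Ccl9 from 156 to 55, Ccl6 from 3 to 38, Ccl3 from 0 to 49 and Ccl4 from 0 to 1. In this run the gene that was lower, Ccl9, stood between genes with more counts in MM. The noncoding gene E230016K23Rik, which overlaps Ccl6, also fell, from 74 to 4 counts (log2 fold change -3.96, edgeR adjusted P = 8.46e-09). E230016K23Rik passed the filter through the MC libraries alone, so the filter favoured a difference. The kit named in the methods does not mark strand, so reads from bases that this gene shares with Ccl6 cannot be told apart. Ccl20 lies on mouse chromosome 1 at 83116766 to 83119167, and Cx3cl1 on chromosome 8 at 94772009 to 94782427.

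**Figure D4:**
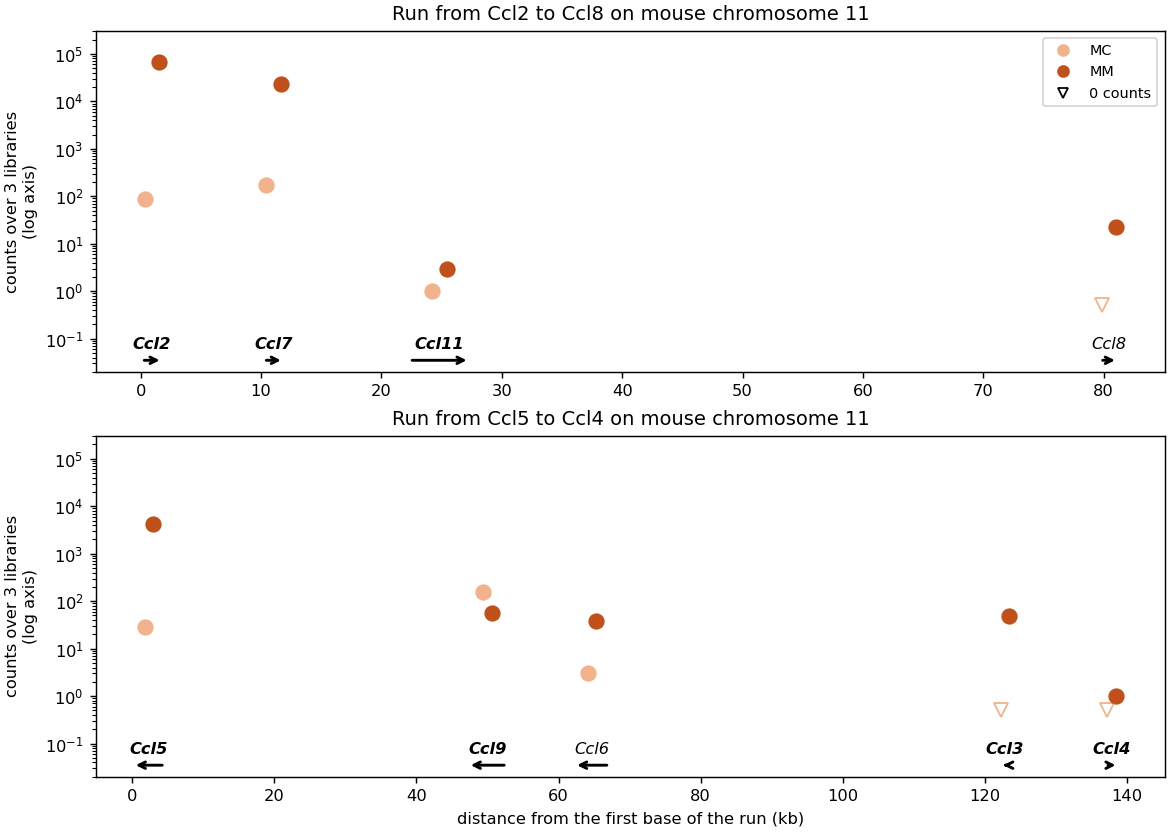
Counts summed over the 3 libraries of MC and of MM for each CC chemokine along the 2 runs on mouse chromosome 11, on a log axis against distance in kb from the first base of the run. Arrows give the strand, triangles mark 0 counts, and Ccl2 with 68810 and Ccl7 with 22991 counts in MM stand beside Ccl11 with 3.

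The bases before the start of a gene hold the sites at which factors such as NF-κB and AP-1 can bind. The RefSeq promoter table for rat (GRCr8) matched 4 of the 9 genes, Ccl7, Ccl9, Ccl20 and Cx3cl1. The 250 bases before the start are shown for the 3 of these that were higher in RM, 5′ to 3′ on the strand of the gene, with the first match of a κB consensus or AP-1 motif in capitals. They lie at chr9:91836909-91837158 on the plus strand for Ccl20, chr10:67513845-67514094 on the plus strand for Ccl7 and chr19:10242821-10243070 on the minus strand for Cx3cl1.
Ccl20: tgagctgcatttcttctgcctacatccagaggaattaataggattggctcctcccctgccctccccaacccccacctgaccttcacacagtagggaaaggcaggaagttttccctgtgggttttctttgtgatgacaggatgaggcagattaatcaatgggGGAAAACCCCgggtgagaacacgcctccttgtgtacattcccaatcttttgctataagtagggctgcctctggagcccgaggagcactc
Ccl7: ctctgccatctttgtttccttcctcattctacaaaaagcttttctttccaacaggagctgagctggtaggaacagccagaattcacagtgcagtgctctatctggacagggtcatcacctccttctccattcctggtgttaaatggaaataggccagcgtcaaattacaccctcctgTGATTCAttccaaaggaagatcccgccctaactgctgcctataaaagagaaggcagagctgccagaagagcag
Cx3cl1: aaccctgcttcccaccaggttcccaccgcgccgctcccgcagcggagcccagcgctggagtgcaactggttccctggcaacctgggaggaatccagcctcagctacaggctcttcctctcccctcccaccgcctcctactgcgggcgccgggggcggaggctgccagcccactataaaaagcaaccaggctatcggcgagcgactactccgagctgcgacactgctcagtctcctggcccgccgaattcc
Searched on both strands, the κB consensus matched in Ccl20, as GGAAAACCCC 89 bases before the start, and in Ccl9, as GGAAAGCCCC 106 bases before it. Of all 33469 rat promoters of this length 3.54% held a match. The AP-1 motif TGANTCA matched in Ccl7 as TGATTCA, 73 bases before the start, and in 6.34% of all promoters. Cx3cl1 held neither in this window. The TATA motif TATAAA, which 12.93% of promoters held, matched 34 bases before the start of Ccl7, 78 bases before that of Cx3cl1 and, on the opposite strand, 165 bases before that of Ccl9.

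The other CC ligands of the list were few and low. In rat the only one tested, Ccl27, did not pass (log2 fold change 0.40, edgeR adjusted P = 0.361). In mouse 1 of 2 tested, Ccl25, which attracts thymocytes and gut T cells, passed with a log2 fold change of 0.40 (edgeR adjusted P = 0.0108), a call that was lost with scaling by library size alone and without MM replicate 2, and Ccl27a had -0.22 (edgeR adjusted P = 0.260). Of all mouse genes tested, 37.4% were higher. Ccl6 had 1 count over RC and 27 over RM, and Ccl22 had 0 and 18, both too few to be tested. The inducible ligands beyond the 9 were thus too low in both species to compare with Ccl2 or Ccl7.

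The receptors of these ligands had few reads in these libraries. In rat Ccrl2 was the only receptor tested of 8 with a row, at a log2 fold change of 0.41 (edgeR adjusted P = 0.427). In mouse Ccr1 was upregulated, with 0 counts in each MC library and 42, 38 and 29 in MM. This was 40.1-fold higher against the floor of 3 counts over MC (edgeR adjusted P = 7.18e-15). Ccr1 reached the count minimum of the filter through the MM libraries alone, so the filter itself favoured a difference. Ccr10 was lower in MM, at -1.33 (SE 0.42, edgeR adjusted P = 0.00377), with 17, 20 and 19 counts in MC and 6, 11 and 3 in MM. It reached the count minimum through the MC libraries alone, so the filter favoured this difference too. Cx3cr1, the receptor of Cx3cl1, had 3 counts over MC and 1 over MM.

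Among the atypical receptors, which bind chemokines without the usual signalling, Ackr3, a receptor of CXCL12, was upregulated in both species. It rose from 13.4 ± 1.19 to 42.3 ± 2.22 FPKM in rat (log2 fold change 1.65, edgeR adjusted P = 4.55e-07) and from 7.83 ± 0.431 to 64.1 ± 0.946 FPKM in mouse (SD, n = 3; log2 fold change 3.31, edgeR adjusted P = 4.06e-58). Ackr4, which takes up CCL19, CCL21 and CCL25, was lower in MM at -1.80 (edgeR adjusted P = 0.00015), with -0.07 in rat (edgeR adjusted P = 0.689). In mouse Ackr4 reached the count minimum of the filter through the MC libraries alone, so the filter favoured a difference.

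Of the proteases that cut chemokines, 3 of 4 tested were higher in RM, and in MM 2 of 4 were higher and 1 lower (2 with library size alone). Of all genes tested 18.3% were higher in rat, and 37.4% were higher and 37.7% lower in mouse, so the mouse counts are near these shares. Without RC replicate 3 the rat count was 2 of the proteases instead of 3. Adam17, a sheddase of CX3CL1, rose by a log2 fold change of 0.69 in rat (edgeR adjusted P = 0.000139) and 0.47 in mouse (edgeR adjusted P = 4.81e-17). Adam10, the other sheddase, rose by 0.53 in rat (edgeR adjusted P = 0.0103) and had 0.07 in mouse (edgeR adjusted P = 0.106). Mmp12, the macrophage elastase, rose by 2.96 in rat (edgeR adjusted P = 1.89e-06) and went from 3 to 1408 counts in mouse. There it passed the filter through the MM libraries alone, so the filter favoured a difference. Dpp4, which trims the first residues of chemokines such as CCL5, fell in mouse, with a log2 fold change of -2.82 (edgeR adjusted P = 6.91e-27) and had -0.27 in rat (edgeR adjusted P = 0.552).

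Of the genes of IL-1 receptor and NF-κB signalling, 12 of 23 tested were higher and none lower in RM, with a median log2 fold change of 0.425, and 19 of 24 were higher and 2 lower (5 with library size alone) in MM, with a median of 1.17. The shares of all genes tested that were higher were 18.3% in rat and 37.4% in mouse. The NF-κB cofactor gene Nfkbiz changed most clearly, by 4.13 in rat (edgeR adjusted P = 1.81e-09) and 5.78 in mouse (edgeR adjusted P = 3.92e-73). The inhibitor gene Nfkbia rose by 2.09 in rat and 3.15 in mouse, and the subunit gene Nfkb1 by 1.20 and 1.90. Il1rn, the natural antagonist of IL-1, was lower in MM at -3.08 (edgeR adjusted P = 5.71e-52) and had 14 and 13 counts in RC and RM.

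The chondrocyte markers were well expressed in the control groups and lower in the model groups. Col2a1, the main collagen of cartilage, stood at 2838 ± 298 FPKM in RC and 943 ± 16.3 in RM, and at 1347 ± 23.8 in MC and 93.7 ± 2.22 in MM (SD, n = 3). All 10 chondrocyte markers were lower in both species, with a median of -1.38 (log2) in rat and -3.14 in mouse, against 16.8% and 37.7% of all genes tested. In mouse Matn3 passed the filter through the MC libraries alone. The collagen genes Col11a1 and Col9a1 changed by -0.84 and -1.31 in rat and by -2.71 and -4.21 in mouse, and Cnmd, which encodes chondromodulin, by -1.41 and -5.07.

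Leukocytes, endothelial cells and fibroblasts also make several of these chemokines, so their markers are given beside them. Leukocyte markers summed to 40.2 to 47.28 CPM in RC and 53.7 to 58.95 in RM, and to 11.76 to 13.9 in MC and 85.44 to 90.38 in MM. Of the tested markers, 2 of 8 were higher and 3 lower in RM, and 5 of 5 were higher in MM. The shares of all genes tested were 18.3% higher and 16.8% lower in rat and 37.4% higher in mouse. In MM S100a8, which activated chondrocytes can also make, had a log2 fold change of 8.08, Cd14 3.96, Cd68 1.50, Lyz2 1.01 and the macrophage receptor gene Csf1r 0.70 (edgeR adjusted P = 0.0087), on 104 counts in MC and 153 in MM. S100a8 had 7 counts over MC and passed the filter through the MM libraries alone, so for S100a8 the filter favoured a difference. Other defining markers were at or near 0 in both mouse groups, with the pan-leukocyte gene Ptprc at 1, 2 and 0 counts in MC and 0, 0 and 1 in MM, the macrophage gene Adgre1 at 1, 0 and 0 and at 0 in every MM library, and Itgam at 0 in all 6 mouse libraries. Spi1, a transcription factor gene of myeloid cells, had 2, 0 and 1 counts in MC and 1, 6 and 8 in MM. Fcer1g had 20 counts over MC and 4 over MM, Laptm5 21 and 16, and Cd79a 20 and 29, too few to be tested. In rat Ptprc had 11, 5 and 4 counts in RC and 4, 4 and 8 in RM, and Adgre1 had 5, 5 and 8 in RC and 6, 6 and 11 in RM. The rat markers that were higher in RM were Cd68 and Cd14, at log2 fold changes of 0.92 and 0.86. Those that were lower were Csf1r at -1.20, Lyz2 at -0.87 and Laptm5 at -1.61. The fitted changes of Csf1r and Lyz2 thus had opposite signs in rat and mouse, and no test of that difference is given here. For Csf1r the mouse libraries overlapped, at 0.598, 0.255 and 0.376 FPKM in MC and 0.408, 0.607 and 0.644 FPKM in MM.

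Endothelial markers summed to 0.482 to 0.8525 CPM in RC, 0.5405 to 0.8924 in RM, 2.909 to 4.789 in MC and 7.632 to 8.486 in MM. In rat none was tested, and in mouse Vwf was higher at 2.18 and Tek lower at -0.80. The Tek call was lost with DESeq2 and when some single libraries were left out. The other 5 with a row were too low to be tested after filtering. Of these Tie1 and Cldn5 had at most 2 counts over a group and Pecam1 had 2, 4 and 2 counts in MC and 2, 1 and 3 in MM, but Cdh5, which encodes VE-cadherin, had 1, 1 and 0 in MC and 10, 9 and 10 in MM, and Kdr, a VEGF receptor gene, had 4, 5 and 8 in MC and 14, 10 and 15 in MM. Without the filter the adjusted P was 5.55e-05 for Cdh5 and 0.0205 for Kdr (edgeR), so in that fit Cdh5 and Kdr were higher in MM. Tek went the other way from Vwf, Cdh5 and Kdr, and Pecam1, Tie1 and Cldn5 had too few counts to show a change in either direction. Of the fibroblast markers, 1 of 7 tested was higher and 2 lower in RM, and 3 of 6 were higher (1 with library size alone) and 3 lower in MM. The shares of all genes tested were 18.3% higher and 16.8% lower in rat, and 37.4% higher and 37.7% lower in mouse. The fibroblast markers summed to 5507 to 6052 CPM in RC, 4932 to 4996 in RM, 3651 to 3739 in MC and 3785 to 3846 in MM. Prg4, the lubricin gene of superficial cartilage and synovium, rose by 5.79 in rat and 3.36 in mouse. In mouse Thy1 and Dpt were lower, at -1.56 and -3.06, and Pdgfra was higher by 0.26, a call that was lost with library size alone. The part of the leukocyte, endothelial and fibroblast markers that moved in the chemokine results was not tested.

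**Figure D5:**
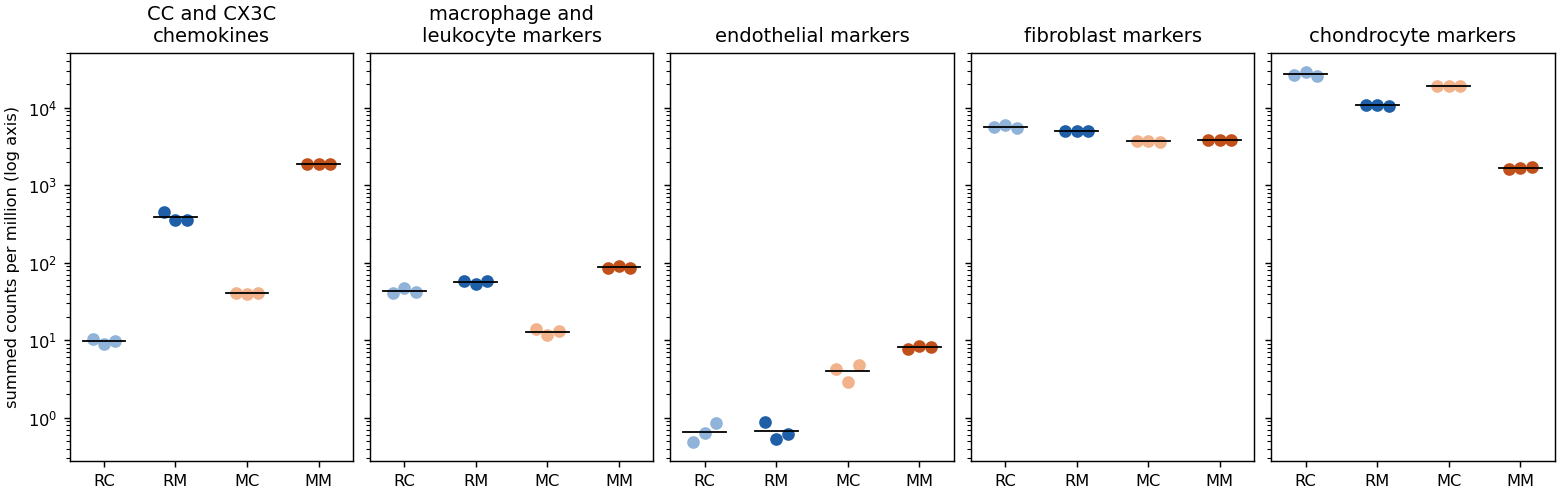
Summed CPM of the chemokines and of the leukocyte, endothelial, fibroblast and chondrocyte marker lists in each library, on a log axis, with 3 libraries in each of RC, RM, MC and MM. The chemokines rise from at most 40.76 in the control libraries to at least 352.6 in the model libraries, while chondrocyte markers fall in both species.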

How the data were processed

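RNA-seq libraries of rat and mouse chondrocytes, 3 in each of 4 groups, were analysed from 1 gene table per species. Per the labels and methods, reads were aligned with HISAT2 and counted with HTSeq 0.11.2 against GRCm38 and Rnor_6.0 (submitters' processing notes). No source used here gives the strand setting or how reads with several matches were handled, and the kit named does not mark strand. The deposited counts are raw whole numbers per gene, and the FPKM values were made by the authors from those counts, with no further scaling. Depth was 16841580 to 25903459 counts per library.

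Counts were tested with edgeR 4.0.16 in R 4.3.3 (filterByExpr with a minimum count of 10, TMM, glmQLFit and glmQLFTest), separately in each species, and for the difference between species in 1 fit of genes shared by symbol with scaling set within species. A gene could pass the filter through the libraries of a single group, and for such a gene the filter favoured a difference. A fold against 0 counts used a floor of 3 counts over the group, has no interval and leaves out counting error in the model counts. Ratios with 1 to 3 counts have exact 95% intervals, for counting error only. Both used library totals scaled by the TMM factors. DESeq2 1.42.0, limma 3.58.1 on log2(FPKM + 1) and log2(FPKM + 0.1), RLE scaling, library size alone, no filter, a replicate block and leaving out each library were the alternatives. An exact permutation test of 3 against 3 cannot go below 0.1, so it was not used. The edgeR scripts were tested on simulated data. Genes other than the 9 were named by a rule that took the passing genes with the smallest adjusted P of each list, up to 4, all passing ligands and receptors, the 3 nearest genes by change and the neighbours in the mouse runs. Defining cell markers, genes near the floor and genes set beside a named one were chosen after their values were seen. The 9 chemokines and all lists were chosen with earlier results of these data known.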

Additional observations from a re-analysis of the deposited data

Results flagged for a closer look

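For 4 chemokines the change with IL-1β differed between the species when the difference itself was tested (edgeR, mouse minus rat, log2). The difference was 4.40 for Ccl2, 1.30 for Ccl7, -2.86 for Ccl9 and -1.02 for Cx3cl1, with adjusted P of 3.35e-12, 0.00113, 0.00665 and 2.13e-05. The mouse changes were 9.76, 7.22, -1.36 and 2.65. The rat changes were 5.36 for Ccl2, 5.92 for Ccl7 and 3.66 for Cx3cl1, whereas Ccl9 had 6 and 18 counts in rat and was not tested there alone. By the same test 58.8% of all genes differed between the species. The species were deposited and scaled as separate tables, so species and table cannot be told apart.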

How the results depend on the processing

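All 130 alternative values of the log2 fold change of a tested chemokine kept the direction and the side of the threshold. Leaving out each library in turn moved Ccl2 between 5.22 and 5.44 in rat and between 9.64 and 9.95 in mouse, Ccl7 between 5.70 and 6.18 in rat, Cx3cl1 between 3.51 and 3.88 in rat and Ccl9 between -1.86 and -1.08 in mouse. Ccl20 in mouse moved most, between 8.67 and 10.96, and its difference between the species between -3.14 and -0.70. Without the filter 5 chemokines passed in rat, with Ccl5, and 7 in mouse, with Ccl3. In mouse 7 instead of 6 also passed without MC replicate 1, 2 or 3 and without MM replicate 3, and in rat 4 passed whichever library was left out. The number whose change differed between the species was 4 in the fit used above. It was 7 with limma on log2(FPKM + 0.1), where Ccl3, Ccl5 and Ccl20 also passed. Of all 133 alternative values of a difference, 6 passed where the fit above did not, and 1 did not pass where it did. With limma on log2(FPKM + 1) the Cx3cl1 difference was -0.23 (adjusted P = 0.0857), a scale that shrinks the change of low genes. Over every mouse gene tested, the median change (log2) under TMM was -0.02, and scaling by library size alone moved it to -0.295.

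Counts in the other lists moved more, and mostly in mouse. With library size alone or limma on either FPKM scale, the other CC ligands had 0 higher and 1 lower (1 and 0 with TMM), NF-κB genes 5 lower (2), proteases 2 lower (1) and fibroblast markers 1 higher (3). Without the filter the other CC ligands had 3 higher in mouse (1) and 2 in rat (0), the receptors 2 (1) and 1 (0), and in mouse the atypical receptors 2 higher (1), endothelial markers 3 higher (1) and leukocyte markers 1 lower (0). With DESeq2 endothelial markers had 0 lower (1). Leaving out single libraries gave 0 to 2 other CC ligands higher in mouse (0 without MM replicate 2, 2 without MC replicate 2, MC replicate 3 or MM replicate 3). Endothelial markers ranged from 1 to 2 higher (2 without any MC library or MM replicate 2) and 0 to 1 lower (0 without MC replicate 1 or 3 or MM replicate 2 or 3). NF-κB genes lower in mouse ranged from 1 to 2 (1 without MM replicate 1). In rat proteases ranged from 2 to 3 higher (2 without RC replicate 3) and from 0 to 1 lower (1 without RC replicate 2). Fibroblast markers in rat ranged from 1 to 2 higher (2 without RC replicate 1) and from 1 to 3 lower (3 without RC replicate 1, 1 without RC replicate 3).

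The replicate numbers recur in each group, but same-numbered libraries did not deviate together (r between -0.0834 and 0.0773 in rat, and between 0.00116 and 0.00973 in mouse). With the replicate number as a block, 4 chemokines passed in rat, 6 in mouse and 4 for the difference, as without it. The depth limits statements on Ccl3, Ccl4, Ccl5 and Ccl9 in rat and on Ccl4 and Ccl11 in mouse.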
